A study of Rattus norvegicus with 39 samples.

Results

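Gene expression in hepatocytes was compared between rats 6 h after a dose of alpha-naphthyl isothiocyanate (ANIT) and rats given its vehicle. The comparison took in every array labelled as hepatocyte at 6 h, 5 with ANIT and 5 with vehicle, which is 10 of the 39 arrays of the series. Sprague Dawley rats aged 8 weeks had received ANIT at 50 mg per kg, prepared with corn oil, while control rats had only the oil (10 ml per kg), and hepatocytes were cut from liver sections by laser capture microdissection. The labels describe each array of a group as a separate biological replicate. The other arrays were hepatocytes at 2 h and bile duct at 2 and 6 h, with the same treatments, and the 2 h hepatocytes and the 6 h bile duct are used below to show where the 6 h hepatocytes differ. The 6 h bile duct had 5 ANIT and 4 vehicle arrays.

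ANIT is taken up by the liver and conjugated to glutathione in hepatocytes. The conjugate is exported into bile, where it releases free ANIT, so that the epithelium of the bile ducts is the first tissue to be injured in rats and hepatocytes are affected later. Hepatocytes answer foreign compounds through receptors that switch on metabolising enzymes, among them the aryl hydrocarbon receptor (AHR), which drives the CYP1 family, and the receptors CAR and PXR, which drive CYP2B and CYP3A genes. Electrophiles release the factor NRF2 and with it genes for thiol repair and NADPH supply. The same cells follow food intake through insulin, glucagon and glucocorticoid, which set genes of amino acid breakdown and of lipid synthesis, and through the circadian clock.

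All values below are log2 probe set intensities, differences are ANIT minus vehicle, and errors are standard deviations for group means and standard errors from limma for differences. Of 15866 probe sets, 0 passed an adjusted p under 0.05 in the limma fit (Benjamini-Hochberg over all of them; the lowest adjusted p was 0.0653), which is 0% called in either direction. At an unadjusted p under 0.05 there were 1285 (8.10%), of which 820 were higher with ANIT (5.17%) and 465 lower (2.93%). Values of the 5 ANIT arrays did not overlap those of the 5 vehicle arrays for 220 probe sets (1.39%), 149 higher (0.939%) and 71 lower (0.447%). Differences of at least 2-fold were found for 45 probe sets, 25 higher and 20 lower, and the median difference over all was 0.03. With 5 arrays a group the median standard error was 0.153, which gives a 95% interval of 0.33 on either side of a typical difference. Every gene difference in hepatocytes given below is one that did not pass, so p-values rank the genes and the arrays themselves show the size.

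The captures held hepatocyte RNA in both groups, with RNA of other liver cells. The mean level of 18 hepatocyte markers was 10.45 ± 0.08 with ANIT and 10.41 ± 0.08 with vehicle (SD, n = 5 each), and summed over the markers it ran between 185.5 and 189.4 with ANIT and between 185.6 and 189.8 with vehicle. The mean level of the cholangiocyte markers was 4.88 with ANIT and 4.76 with vehicle. Krt19, a keratin of bile duct epithelium, stood at 3.21 ± 0.33 with ANIT and 3.18 ± 0.34 with vehicle, against 10.71 and 10.92 in the ANIT and vehicle bile duct captures. Markers of other liver cells were present in both groups: Epcam of bile duct epithelium at 5.78 with ANIT and 5.97 with vehicle, Clec4f of Kupffer cells at 8.31 with ANIT and 8.40 with vehicle, Kdr of endothelium at 7.93 with ANIT and 8.07 with vehicle, and Col3a1 of stellate cells and fibroblasts at 9.17 with ANIT and 9.13 with vehicle. Their part in the gene differences was not tested. Of 14 measures per array (spread, 3' to 5' control signal, marker levels and the like), 1 had an exact two-sided permutation p under 0.05, the mean correlation of an array with its own group, at 0.983 with ANIT and 0.986 with vehicle (p = 0.0317, 0.422 after adjustment; the smallest p that 5 against 5 allows is 0.00794). In the cholangiocyte list 15 of 16 markers had p above 0.05. The exception was Onecut1, a transcription factor gene of hepatocytes as well as bile ducts, at 7.07 ± 0.87 with ANIT and 5.52 ± 1.12 with vehicle (difference 1.55 ± 0.48, adjusted p = 0.446), named here after its values were seen.

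**Figure D1:**
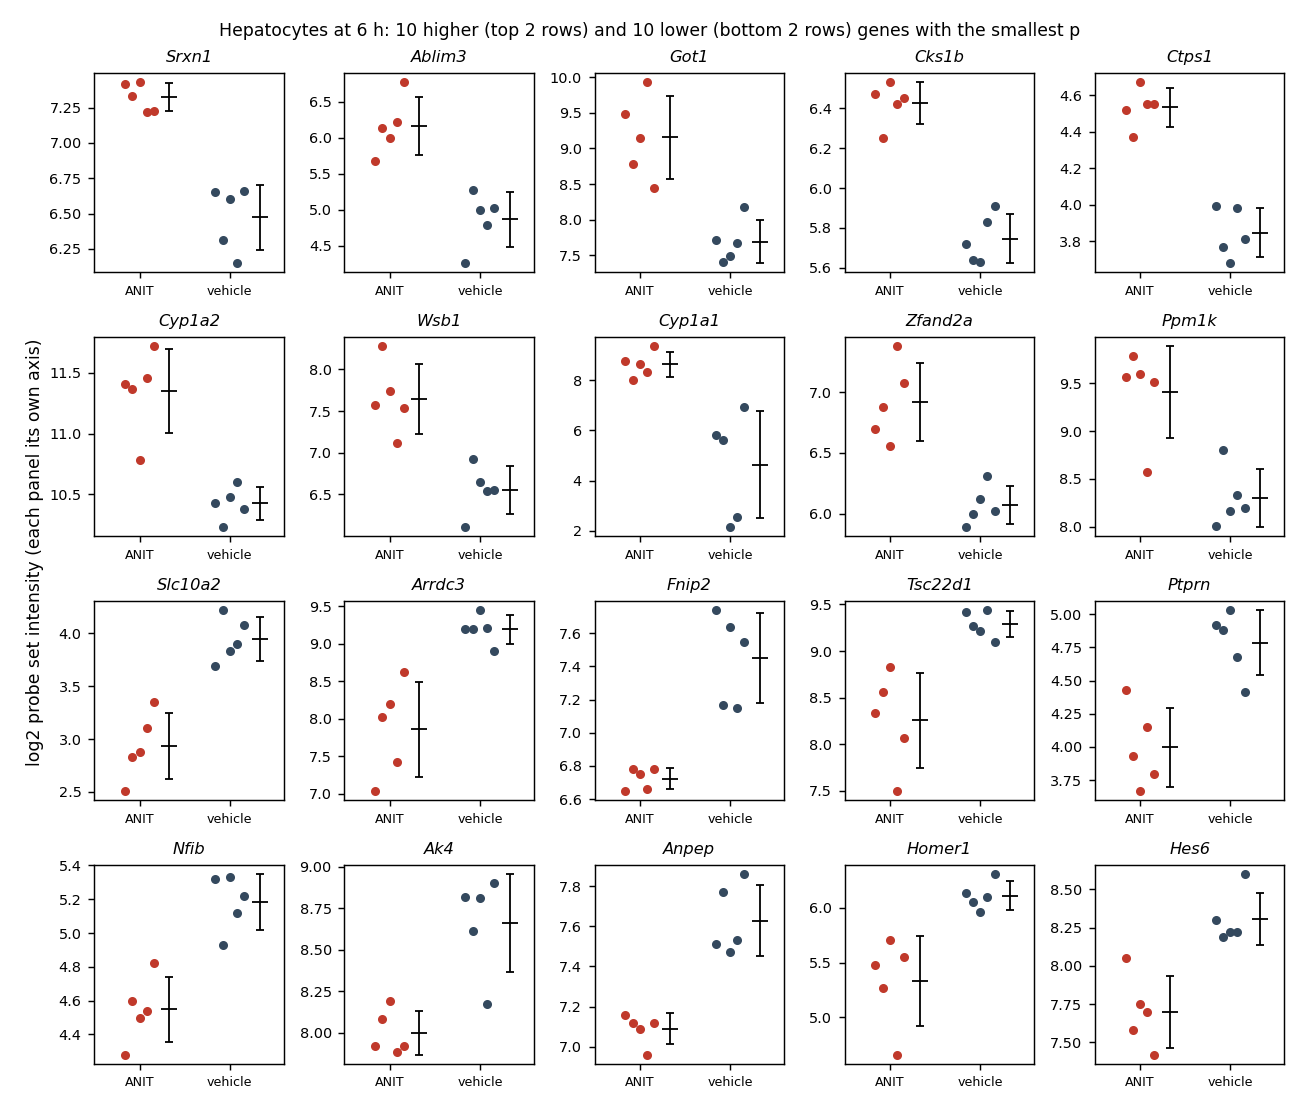
Log2 probe set intensity (y axis, a separate scale in each panel) of the 10 higher and 10 lower genes with the smallest p, for 5 ANIT arrays on the left and 5 vehicle arrays on the right of each panel. Points are arrays and the bar beside them is the mean with its SD; the groups overlap for Ppm1k, Ptprn and Ak4 and lie apart in the other panels.

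The promoters of 4 genes are shown because these genes lead or stand among the redox, AHR and clock genes described below. The genes were not chosen by rank, and no window was available for Cyp1a1. The sequences are RefSeq windows on GRCr8 of 250 bases before a gene's start and 5 after it, written 5' to 3' on the strand of the gene. Capitals mark matches on either strand to GCGTG (the core bound by AHR), TGAGTCAGC (an AP-1 motif joined to the GC of the antioxidant response element) or CACGTG (the E-box bound by clock factors). A further search for TGACNNNGC, the antioxidant response element core, gave no match in them.
Srxn1, chr3:161064562-161064816, plus strand: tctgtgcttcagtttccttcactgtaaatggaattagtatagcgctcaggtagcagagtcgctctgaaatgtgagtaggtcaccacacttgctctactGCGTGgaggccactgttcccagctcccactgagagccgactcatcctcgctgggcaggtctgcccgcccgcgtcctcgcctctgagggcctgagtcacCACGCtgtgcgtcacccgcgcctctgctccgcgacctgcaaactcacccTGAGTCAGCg
Cyp1a2, chr8:66978145-66978399, minus strand: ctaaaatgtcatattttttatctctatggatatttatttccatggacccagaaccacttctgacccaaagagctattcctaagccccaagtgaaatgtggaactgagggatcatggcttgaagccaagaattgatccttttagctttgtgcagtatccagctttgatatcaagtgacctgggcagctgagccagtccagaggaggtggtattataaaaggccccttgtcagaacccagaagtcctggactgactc
Nr1d1, chr10:84229450-84229704, minus strand: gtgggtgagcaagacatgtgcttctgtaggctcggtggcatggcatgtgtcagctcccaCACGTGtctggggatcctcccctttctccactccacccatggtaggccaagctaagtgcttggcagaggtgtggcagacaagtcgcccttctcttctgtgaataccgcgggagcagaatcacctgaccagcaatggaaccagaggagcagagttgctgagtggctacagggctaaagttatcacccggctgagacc
Bhlhe40, chr4:143174200-143174454, plus strand: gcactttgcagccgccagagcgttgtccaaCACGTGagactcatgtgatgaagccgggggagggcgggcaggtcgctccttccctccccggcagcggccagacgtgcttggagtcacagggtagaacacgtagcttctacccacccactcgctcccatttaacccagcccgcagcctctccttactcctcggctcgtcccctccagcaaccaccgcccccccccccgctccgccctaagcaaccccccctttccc

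In the Srxn1 window GCGTG begins 152 and 54 bases before the start (the second on the opposite strand) and TGAGTCAGC begins 5 bases before it and runs over it. The CACGTG matches begin 191 bases before the second RefSeq start of Nr1d1 and 220 bases before the start of Bhlhe40. The window of the first Nr1d1 start, not shown, has no CACGTG and a GCGTG that begins 96 bases before it. Of all 33469 windows in the table, 26.3% hold GCGTG, 10.3% TGACNNNGC, 0.373% TGAGTCAGC and 5.73% CACGTG. Of the 106 genes named for the hepatocyte comparison, 91 had a window. These letters describe the windows and do not show a bound site.

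The AHR genes gave the largest difference of any probe set. Cyp1a1, the xenobiotic cytochrome most strongly induced through AHR, stood at 8.77, 8.01, 8.66, 8.32 and 9.35 on the ANIT arrays, against 5.83, 5.63, 2.16, 2.57 and 6.94 on the vehicle arrays. The groups did not overlap, and vehicle replicates 3 and 4 lay far below the other vehicle arrays. The difference was 4.00 ± 0.73, 15.96-fold, with a 95% interval from 2.45 to 5.55 (adjusted p = 0.0726). Because the vehicle spread was wide (SD 2.13), the fold is not well measured. Without vehicle replicate 5 the difference was 4.57 (adjusted p = 0.0409). That was the highest vehicle array, so leaving it out had to enlarge the difference. Of the 10 fits without 1 array it was the only 1 in which Cyp1a1 passed. The authors' deposited table gave a log10 ratio of 0.69 for Cyp1a1 (p = 8e-05), a 4.95-fold higher value with ANIT.

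Cyp1a2, the AHR-regulated cytochrome that livers also express without an inducer, stood at 11.41, 11.37, 10.78, 11.46 and 11.72 with ANIT, against 10.43, 10.23, 10.48, 10.60 and 10.38 with vehicle. All ANIT arrays were above all vehicle arrays, and ANIT replicate 3 was the lowest of its group. The difference was 0.92 ± 0.16, 1.90-fold (adjusted p = 0.0716), and 1.07 without that replicate (adjusted p = 0.0221). Leaving out the lowest ANIT array had to enlarge the difference, and of the 10 fits without 1 array this was the only 1 in which Cyp1a2 passed. Of the 8 genes measured in the AHR list, 3 were higher at an unadjusted p under 0.05 and 0 lower, against 5.17% and 2.93% of all probe sets, and the list median was 0.16 against 0.03. That median was 0.06 without ANIT replicate 1. The third was Aldh3a1, an aldehyde dehydrogenase gene, at 2.67 with ANIT and 2.34 with vehicle, near the bottom of the scale (difference 0.33 ± 0.15). In the authors' deposited table Aldh3a1 had the opposite sign, a log10 ratio of -0.0974. Cyp1b1 (0.16 ± 0.17) and Tiparp (0.05 ± 0.14), further AHR targets, had p above 0.05. These last 2, and below Nqo1, Slc10a1, Abcc2, Ddit3 and Ephx1, are named for their known roles and were not chosen by rank.

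Among the cytochromes and other targets of CAR and PXR no single direction prevailed. Of 29 genes measured, 4 were higher and 3 lower at an unadjusted p under 0.05 (24.1% against 8.10% of all probe sets). Groups lay apart for 0 of the 29, and the median was 0.02. The probe set shared by Cyp2b1 and Cyp2b2, given below, is not in this list. Por, the reductase that passes electrons to all microsomal cytochromes, stood at 8.94, 8.76, 9.04, 9.53 and 8.86 with ANIT, against 8.17, 7.79, 7.75, 8.22 and 8.77 with vehicle. Of the vehicle arrays, replicate 5 alone reached into the ANIT range. The difference was 0.89 ± 0.20 (adjusted p = 0.211), and another Por probe set gave 0.82. On the lower side were Cyp2c12 (-0.99 ± 0.32), a steroid hydroxylase gene whose level in rat liver depends on sex, Cyp2a2 (-0.50 ± 0.16) and Cyp2e1 (-0.41 ± 0.14), the ethanol-oxidising cytochrome. Cyp2j3, an arachidonic acid epoxygenase gene, was 0.36 ± 0.14 higher. Adjusted p-values of these 4 ran from 0.464 to 0.52.

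A probe set that the annotation pairs with both Cyp2b1 and Cyp2b2 (phenobarbital-inducible CAR targets), and which is therefore not assigned to one gene, had the second smallest p of all. It stood at 9.71, 10.50, 10.31, 9.33 and 10.54 with ANIT, against 8.39, 8.55, 8.16, 9.22 and 8.36 with vehicle, without overlap. The difference was 1.54 ± 0.24, 2.91-fold (adjusted p = 0.0653). At 2 h the same probe set differed by 0.01 ± 0.20. Of 16 UGT and sulfotransferase genes measured, 1 was higher and 0 lower at an unadjusted p under 0.05 (6.25% against 8.10% of all probe sets). That was Sult2a6, a hydroxysteroid sulfotransferase gene, 0.82 ± 0.26 higher at 6 h (adjusted p = 0.464) and -0.70 at 2 h.

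Redox genes regulated by NRF2 were led by Srxn1, the sulfiredoxin gene whose enzyme repairs oxidised peroxiredoxins and which had the smallest p of any probe set. It stood at 7.42, 7.33, 7.43, 7.22 and 7.23 on the ANIT arrays, against 6.65, 6.31, 6.60, 6.15 and 6.66 on the vehicle arrays. The gap between the groups was wider than the range of the ANIT arrays. The difference was 0.85 ± 0.13, 1.80-fold, with a 95% interval from 0.57 to 1.13 (adjusted p = 0.0653), and it passed in 6 of 12 alternatives. Of these 6 passes, 2 came from fits over all 20 hepatocyte arrays. The authors' deposited table gave a 1.39-fold higher value of Srxn1 (p = 0.0817).

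Of 30 NRF2 targets and redox enzymes measured, 7 were higher and 0 lower at an unadjusted p under 0.05, against 5.17% and 2.93% of all probe sets. By direction alone 19 of the 30 were higher and 11 lower, against 55.5% and 44.1% of all probe sets, and the lowest difference was -0.32. The groups lay apart for 2, against 1.39% of all, and the list median was 0.08. That median was 0.14 without ANIT replicate 4, 0.063 without ANIT replicate 5 and 0.055 after quantile normalization. Txnrd1, which encodes thioredoxin reductase, stood at 8.91 ± 0.19 with ANIT and 8.46 ± 0.11 with vehicle, without overlap (0.45 ± 0.13, adjusted p = 0.384). Me1, the malic enzyme gene that supplies NADPH, was 7.28 ± 0.44 with ANIT and 6.29 ± 0.63 with vehicle (0.99 ± 0.27, 1.98-fold, adjusted p = 0.384), and a second Me1 probe set gave 0.81. Akr7a3, the aflatoxin aldehyde reductase gene, was 0.57 ± 0.20 higher and Abcc3, the basolateral export pump for glucuronides and bile salts, 0.86 ± 0.33 higher. Abcc3 ranged from 3.57 to 5.81 with ANIT and from 2.96 to 3.74 with vehicle, so that 1 ANIT array lay within the vehicle range. Nqo1, a quinone reductase gene that the naming rule did not reach, had the largest difference of the list, 1.28 ± 0.53, with SDs of 1.15 with ANIT and 1.10 with vehicle.

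In a further list, of 30 genes of glutathione synthesis and transfer measured, 1 was higher (Gsta3, 0.70 ± 0.27) and 1 lower (Mgst3, -0.28 ± 0.13) at an unadjusted p under 0.05, which is near the share of all probe sets, and the median was -0.04. Gclm, the modifier subunit of the enzyme that makes gamma-glutamylcysteine, stood at 7.44 ± 0.39 with ANIT and 7.76 ± 0.07 with vehicle (-0.32 ± 0.16, adjusted p = 0.651). Ctps1, for CTP synthase, was outside these lists but among the 5 smallest p-values of named genes that were higher, at 4.53 ± 0.11 with ANIT and 3.85 ± 0.14 with vehicle, 0.69 ± 0.12 apart (adjusted p = 0.0716). A second Ctps1 probe set differed by 0.01.

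Among genes that respond to fasting, glucagon and glucocorticoid was the largest difference of the listed genes after Cyp1a1, that of Sds. Sds, serine dehydratase, which turns serine into pyruvate for glucose synthesis, stood at 7.93, 5.97, 6.82, 8.19 and 5.82 with ANIT, against 4.48, 4.69, 4.18, 4.21 and 5.95 with vehicle. Of the vehicle arrays, only replicate 5 reached the ANIT range. The difference was 2.24 ± 0.44, 4.74-fold (adjusted p = 0.121), and 2.56 without that replicate (adjusted p = 0.0562). Sds passed in 0 of the 10 fits without 1 array. In bile duct Sds differed by -0.10, and the test of hepatocytes minus bile duct gave 2.34 (adjusted p = 0.0144). Got1, cytosolic aspartate aminotransferase, stood at 9.48, 8.78, 9.14, 9.93 and 8.44 with ANIT, against 7.72, 7.40, 7.49, 7.67 and 8.18 with vehicle. The arrays of Got1 did not overlap, and its difference was 1.46 ± 0.24, 2.75-fold (adjusted p = 0.0653).

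Igfbp1, an insulin-repressed binding protein for insulin-like growth factors, stood at 9.42, 9.59, 8.99, 9.29 and 10.26 with ANIT, against 8.17, 8.71, 6.86, 6.97 and 9.58 with vehicle. Its groups overlapped through vehicle replicate 5, and the difference was 1.45 ± 0.42 (adjusted p = 0.409). Tat, tyrosine aminotransferase and a classical glucocorticoid target, was 6.91 ± 0.17 with ANIT and 5.80 ± 0.92 with vehicle, a difference of 1.12 ± 0.32 (adjusted p = 0.398). The ANIT arrays of Tat spanned 6.81 to 7.21 and the vehicle arrays 4.66 to 7.14, so most of the spread was among vehicle rats. Trib3, a pseudokinase gene induced by fasting and by ATF4, was 7.04 ± 0.54 with ANIT and 5.65 ± 0.80 with vehicle (1.39 ± 0.33, adjusted p = 0.279), and 2 further Trib3 probe sets gave 1.23 and 0.94. Lpin1, a phosphatidate phosphatase gene, was 9.07 ± 0.56 with ANIT and 7.93 ± 1.00 with vehicle (1.13 ± 0.39, adjusted p = 0.483). Vehicle replicate 5 was the highest vehicle array for Cyp1a1, Por, Got1, Sds, Igfbp1, Tat and Lpin1. These genes were picked after their values were seen, and for Trib3 and Cyp1a2 another vehicle array was the highest.

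Counted by list, 7 of 19 genes regulated by glucocorticoid and fasting were higher and 1 lower at an unadjusted p under 0.05, and 6 of 31 glucose and insulin responsive genes were higher and 1 lower. Of 41 genes of amino acid breakdown and the urea cycle, 7 were higher and 2 lower. The shares over all probe sets were 5.17% higher and 2.93% lower. The list medians were 0.03, 0.06 and -0.05, against 0.03 for all probe sets. The first was 0.21 without ANIT replicate 2 and -0.0095 without vehicle replicate 1, the second 0.14 without vehicle replicate 5 and -0.007 without vehicle replicate 3, and the third 0.01 without ANIT replicate 2. The lists share members, Sds, Tat and Igfbp1 among them. In the urea cycle Asl, argininosuccinate lyase, was 0.40 ± 0.14 higher, and Gldc of glycine cleavage was 0.41 lower on the log2 scale (-0.41 ± 0.15), with adjusted p of 0.5 and 0.517. Dusp1, a phosphatase gene induced by glucocorticoid and stress, went the other way, at 8.68 ± 0.21 with ANIT and 9.32 ± 0.39 with vehicle (-0.64 ± 0.18, adjusted p = 0.384).

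**Figure D2:**
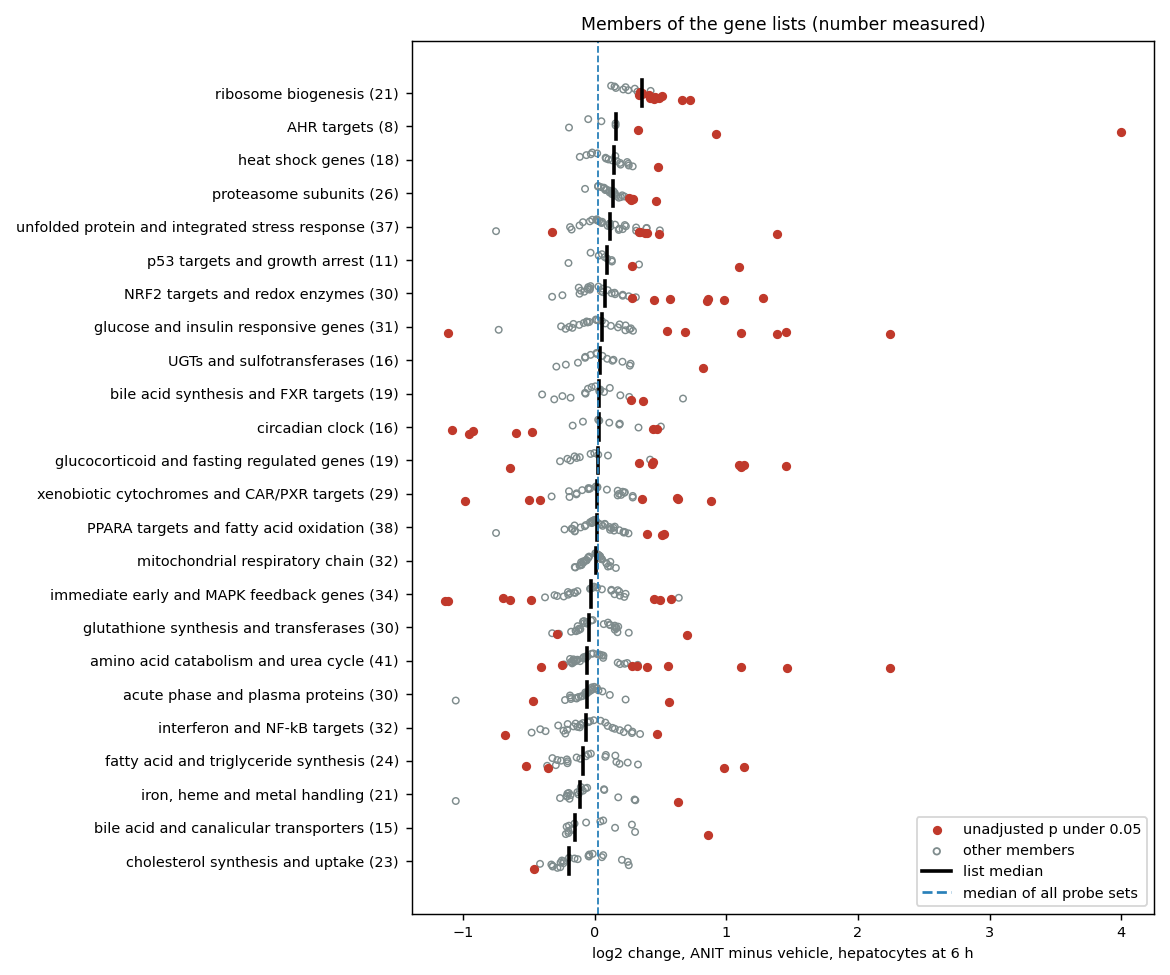
Log2 difference of ANIT minus vehicle in hepatocytes at 6 h (x axis) for the measured members of 24 gene lists (rows, ordered by median, number measured in brackets). Filled points have an unadjusted p under 0.05, open points do not, black bars are list medians and the dashed line is the median of all probe sets; ribosome biogenesis lies wholly to the right of 0 and the lone point at 4.00 is Cyp1a1.

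Lipid genes showed no single direction. In the list of fatty acid and triglyceride synthesis, 2 of 24 genes measured were higher (Me1 and Lpin1, given above) and 2 lower (Fads1 and Acacb) at an unadjusted p under 0.05, with a median of -0.09. Both directions together made 16.7% of that list, against 8.10% of all probe sets. Fads1, a fatty acid desaturase gene, stood at 9.75, 9.87, 9.73, 9.86 and 9.91 with ANIT, against 10.21, 10.46, 10.06, 10.04 and 10.11 with vehicle. The groups lay apart, although the difference was small, -0.35 ± 0.12 (adjusted p = 0.477). Acacb, the acetyl-CoA carboxylase form that restrains mitochondrial fatty acid entry, was -0.52 ± 0.18 at a low level (2.68 with ANIT and 3.20 with vehicle). Of 23 cholesterol synthesis and uptake genes 18 were below 0, against 44.1% of all probe sets, with a median of -0.19 that was -0.11 without vehicle replicate 1. An unadjusted p under 0.05 was found for 1 (4.35%), against 2.93% of all probe sets on that side. That was Msmo1, a sterol demethylation enzyme, at 7.44 ± 0.22 with ANIT and 7.89 ± 0.44 with vehicle (-0.46 ± 0.19, adjusted p = 0.567).

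On the side of fatty acid oxidation, Cpt2, the inner-membrane carnitine palmitoyltransferase, stood at 8.08, 7.99, 8.32, 8.29 and 8.13 with ANIT, against 7.66, 7.81, 7.64, 7.56 and 7.58 with vehicle. These groups did not overlap (0.51 ± 0.12, adjusted p = 0.222). Cyp4a1, a fatty acid omega-hydroxylase gene under PPARA, was 0.52 ± 0.18 higher. Of 38 PPARA targets measured, 3 were higher and 0 lower at an unadjusted p under 0.05, and the median was 0.02. That share, 7.89%, was near the 8.10% of all probe sets. Fgf21, a hepatic fasting hormone gene under PPARA, was 4.47 ± 0.81 with ANIT and 5.22 ± 0.96 with vehicle (-0.75 ± 0.42, adjusted p = 0.691), so its direction was opposite to that of Igfbp1 and Sds.

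Genes of bile acid synthesis and FXR signalling had a median near that of all probe sets (0.04 against 0.03). Of 19 measured, 2 were higher and 0 lower at an unadjusted p under 0.05 (10.5% against 8.10% of all probe sets). These were Slc27a5 (0.37 ± 0.16) of bile acid conjugation and Akr1c14 (0.27 ± 0.13), a steroid dehydrogenase gene. A second Akr1c14 probe set, at 7.17 with ANIT and 6.49 with vehicle, gave 0.68 ± 0.16 (adjusted p = 0.247 in limma). Cyp7a1, the rate-limiting enzyme of bile acid synthesis, was 8.55 ± 0.32 with ANIT and 7.88 ± 1.03 with vehicle (0.67 ± 0.37, adjusted p = 0.68). The vehicle arrays of Cyp7a1 ran from 6.26 to 8.80 and enclosed those of ANIT except the highest. Of 15 transporters measured, 1 was higher (Abcc3, 6.67%) and 0 lower at an unadjusted p under 0.05, against 5.17% and 2.93% of all probe sets. The list median of -0.15 was 0.0065 without ANIT replicate 3. The uptake carriers Slc10a1 (-0.17 ± 0.13) and Slco1b2 (-0.22 ± 0.13) and the canalicular pump Abcc2 (0.16 ± 0.14) all had p above 0.05.

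Slc10a2, the apical bile salt transporter that is known mainly from ileum, kidney and bile duct epithelium, had the smallest p among the genes that were lower. It stood at 2.51, 2.83, 2.88, 3.10 and 3.35 with ANIT, against 3.69, 4.22, 3.83, 3.90 and 4.08 with vehicle. The groups lay apart but both were low on the scale, and the difference was -1.01 ± 0.16 (adjusted p = 0.0653). The next smallest p on that side was of a probe set with no gene listed, at 4.26 ± 0.77 with ANIT and 6.05 ± 0.50 with vehicle (-1.79 ± 0.32, 3.47-fold lower, adjusted p = 0.0726). Arrdc3, an arrestin-domain gene that limits adrenergic signalling, stood at 7.04, 8.02, 8.20, 7.42 and 8.63 with ANIT, against 9.20, 9.20, 9.45, 9.21 and 8.90 with vehicle. All ANIT arrays of Arrdc3 were below all vehicle arrays (-1.33 ± 0.24, 2.51-fold lower, adjusted p = 0.0726). Tsc22d1, a leucine-zipper gene, was 8.26 ± 0.51 with ANIT and 9.29 ± 0.14 with vehicle, also without overlap (-1.03 ± 0.20, adjusted p = 0.113). Fnip2, a folliculin partner in AMPK and mTOR signalling, was 6.72 ± 0.06 with ANIT and 7.45 ± 0.27 with vehicle (-0.73 ± 0.14, adjusted p = 0.0952).

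The other genes among the 10 lower ones with the smallest p were Ptprn (-0.79 ± 0.16), a receptor phosphatase gene, Nfib (-0.64 ± 0.13), a nuclear factor I gene, Ak4 (-0.66 ± 0.15), an adenylate kinase gene, and Anpep (-0.54 ± 0.12), aminopeptidase N. Homer1 (-0.78 ± 0.17), a scaffold protein gene, and Hes6 (-0.61 ± 0.14), a bHLH regulator gene, completed them, and adjusted p-values of these 6 ran from 0.137 to 0.226. Of 4 other Homer1 probe sets, 2 were lower (-0.49 and -0.51) and 2 were at 0.04 and 0.01, and a second Ak4 probe set was at -0.06. Among the higher genes with the smallest p and no list of their own, Ablim3, an actin-binding LIM protein gene, stood at 5.68, 6.14, 5.99, 6.22 and 6.77 with ANIT, against 4.26, 5.27, 5.00, 4.79 and 5.02 with vehicle. Ablim3 did not overlap between groups (1.29 ± 0.21, 2.45-fold, adjusted p = 0.0653) and passed in 7 of 12 alternatives. Wsb1 (1.10 ± 0.20), a ubiquitin ligase adaptor, Ppm1k (1.11 ± 0.21), the phosphatase that activates branched-chain amino acid breakdown, Cks1b (0.68 ± 0.12), a cell cycle cofactor, and Zfand2a (0.85 ± 0.16), a proteasome-associated stress gene, had adjusted p from 0.0716 to 0.101.

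Ribosome biogenesis was the list with the largest median, 0.36. All 21 of its measured genes were higher with ANIT, and 12 of 21 (57.1%) had an unadjusted p under 0.05 against 5.17% of all probe sets in that direction. Wdr43, of the small-subunit processome, stood at 7.49, 7.28, 7.19, 7.55 and 7.31 with ANIT, against 6.85, 6.70, 6.68, 6.33 and 6.93 with vehicle, without overlap (0.67 ± 0.14, adjusted p = 0.137). Nolc1, a nucleolar chaperone of small ribonucleoproteins, was 7.18 ± 0.28 with ANIT and 6.46 ± 0.27 with vehicle (0.73 ± 0.16, adjusted p = 0.219), with further probe sets at 0.43 and 0.07. Nop58, a box C/D core protein, was 0.45 ± 0.12 higher, Ltv1, a 40S export factor, 0.42 ± 0.12, and the helicase gene Ddx21 0.49 ± 0.14. All 21 were also higher after quantile normalization and after subtraction of array medians, with list medians of 0.32 and 0.34. At 2 h the median was 0.16.

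In the other protein-handling lists the medians were smaller. Over all probe sets 55.5% were higher with ANIT, and 5.17% were higher at an unadjusted p under 0.05. Of 26 proteasome subunits measured, 25 were higher and 5 (19.2% in either direction) had an unadjusted p under 0.05, with a median of 0.14, and Psmc5 led with 7.35 ± 0.18 for ANIT against 6.88 ± 0.11 for vehicle (0.46 ± 0.12, adjusted p = 0.347). Of 37 genes of the unfolded protein and integrated stress response, 29 were higher, 6 of them at an unadjusted p under 0.05, and 1 was lower at that level, with a median of 0.12. Beside Trib3 these included the factor gene Atf4 (0.40 ± 0.15), the amino acid carrier subunit Slc3a2 (0.49 ± 0.16) and the asparaginyl-tRNA synthetase gene Nars1 (0.38 ± 0.15). Ddit3, which encodes CHOP, was the lower one (-0.33 ± 0.14, adjusted p = 0.593). Of 18 heat shock genes, 14 were higher with a median of 0.15, which was 0.06 without ANIT replicate 3. An unadjusted p under 0.05 was found for 1, Hsph1 (0.48 ± 0.20), a share near that of all probe sets.

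Immediate early and MAPK feedback genes were mixed, with Dusp6 and Egr1 lowest. Dusp6, the ERK phosphatase gene that ERK itself induces, stood at 7.74, 8.18, 8.09, 6.92 and 7.75 with ANIT, against 8.64, 8.72, 9.51, 9.43 and 8.04 with vehicle. Vehicle replicate 5 reached into the ANIT range, and the difference was -1.13 ± 0.28 (adjusted p = 0.288), with 2 other Dusp6 probe sets at -0.87 and -0.75. Egr1, a serum-inducible transcription factor gene, was 7.30 ± 0.58 with ANIT and 8.41 ± 0.57 with vehicle (-1.11 ± 0.29, adjusted p = 0.335). Ier3, a stress-inducible survival gene, was 0.50 ± 0.15 higher. Of 34 members measured, 3 were higher and 5 lower at an unadjusted p under 0.05, with a median of -0.02. Both directions together made 23.5% of the list, against 8.10% of all probe sets. At an unadjusted p under 0.05 plasma proteins were near the background, with 1 of 30 higher (Cebpb, a liver transcription factor gene placed in that list, 0.57 ± 0.17) and 1 lower (A2m, -0.47 ± 0.19). By direction alone 23 of the 30 were below 0, against 44.1% of all probe sets, with a median of -0.06. After quantile normalization 11 of the 30 were higher and the median was -0.04.

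Among the clock genes, the 5 with the smallest p were lower with ANIT and none of them passed. Per2, a period gene, stood at 6.02, 5.81, 6.29, 6.10 and 4.96 with ANIT, against 6.34, 6.38, 7.37, 7.03 and 6.82 with vehicle. Its groups lay apart (-0.95 ± 0.25, adjusted p = 0.335). Nr1d1, the repressor REV-ERB alpha, stood at 6.61, 6.27, 6.61, 6.55 and 6.46 with ANIT, against 6.76, 6.91, 7.55, 7.34 and 6.91 with vehicle, also apart (-0.59 ± 0.16, adjusted p = 0.347). Cry2, a cryptochrome gene, was 5.19 ± 0.17 with ANIT and 5.66 ± 0.17 with vehicle (-0.47 ± 0.13), with a second probe set at 0.06. Dbp, a clock output factor, was 7.03 ± 1.13 with ANIT and 8.12 ± 0.33 with vehicle (-1.08 ± 0.40), and Bhlhe40, a clock repressor gene, 3.43 ± 0.69 with ANIT and 4.35 ± 0.56 with vehicle (-0.93 ± 0.31). The Dbp value rested in part on ANIT replicate 5, at 5.18, without which the difference was -0.62.

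Of the 16 clock genes measured, 5 were lower at an unadjusted p under 0.05 (background 2.93%) and 2 higher (background 5.17%), so that the median, 0.03, hides both groups; after quantile normalization it was -0.003. The same genes stood at other levels at 2 h. Dbp was 3.07 ± 0.39 with ANIT and 3.61 ± 0.38 with vehicle at 2 h, and Per2 4.27 ± 0.22 with ANIT and 4.71 ± 0.45 with vehicle, so that both lay below their 6 h levels in either treatment. Hours of dosing and of tissue collection are not given in the sources used here.

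**Figure D3:**
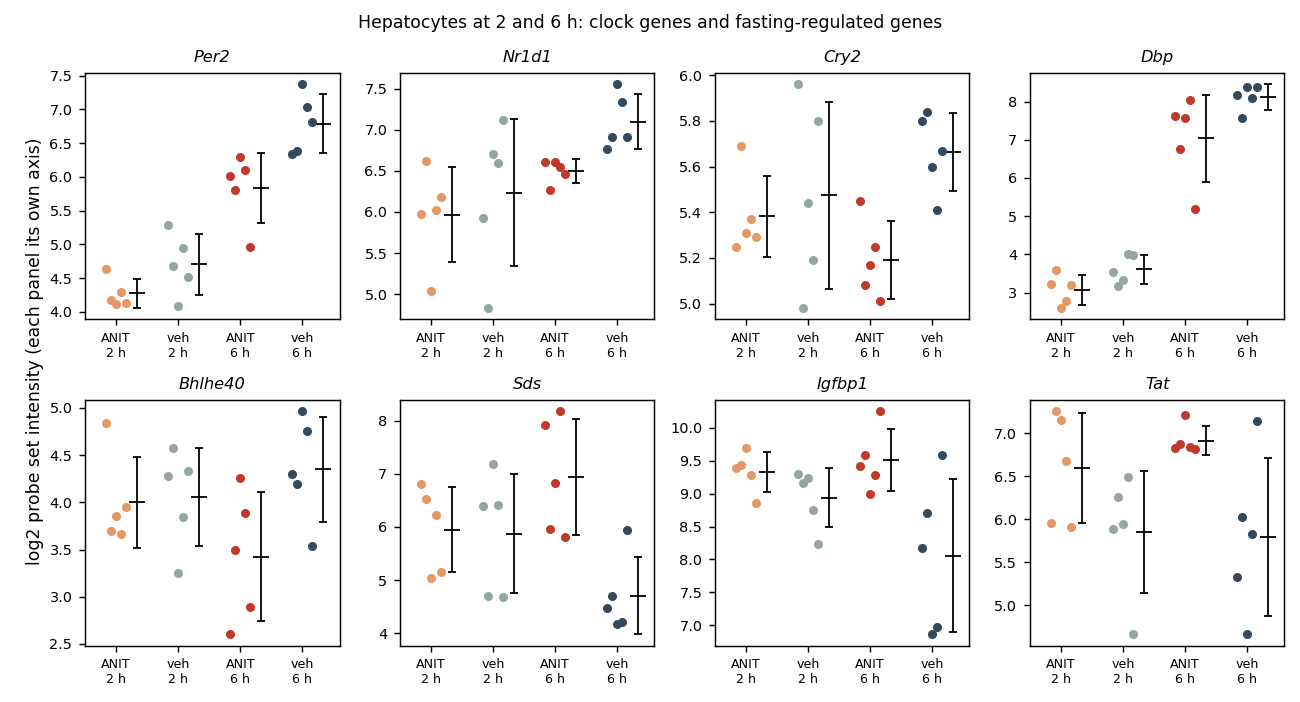
Log2 probe set intensity (y axis, a separate scale in each panel) of 5 clock genes and 3 fasting-regulated genes in hepatocytes at 2 and 6 h, ANIT left of vehicle (veh) at each time, 5 arrays a group, with the mean and SD beside the points. Per2 and Dbp lie higher at 6 h than at 2 h in both treatments, and at 6 h the vehicle arrays of Sds, Igfbp1 and Tat span down to 4.18, 6.86 and 4.66.

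Whether the 6 h difference was larger than the 2 h one was tested as an interaction over the 20 hepatocyte arrays. Of 15866 probe sets, 0 passed (limma, lowest adjusted p = 0.507), and 1072 (6.76%) had an unadjusted p under 0.05. Among probe sets with 1 gene symbol, the smallest p-values on the side where ANIT minus vehicle was greater at 6 h included Srxn1, with a difference of 0.01 ± 0.15 at 2 h and an interaction of 0.84 (adjusted p = 0.507), and Cpt2, with -0.15 ± 0.12 at 2 h and an interaction of 0.66. Ctps1 (interaction 0.69), the zinc finger gene Hivep1 (0.84) and the centriole gene C2cd3 (0.70) were the others. The probe set shared by Cyp2b1 and Cyp2b2 had a smaller p than these 5, with an interaction of 1.53 (adjusted p = 0.507). On the opposite side were Hes6 (-0.83), Rasgrp2 (-0.88), Rnpepl1 (-0.72), Ankrd24 (-0.62) and Fads1 (-0.56). Cyp1a1 already differed by 1.71 ± 0.51 at 2 h, at lower levels (3.96 with ANIT and 2.24 with vehicle), and its interaction of 2.28 had an adjusted p of 0.69. Arrdc3 (-0.50 ± 0.15), Slc10a2 (-0.44 ± 0.11) and Ablim3 (0.55 ± 0.17) had at 2 h the direction they had at 6 h.

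The hepatocyte difference was also set against that of the bile duct at 6 h. The interaction (hepatocytes minus bile duct, 19 arrays) passed for 1118 of 15866 probe sets (7.05%), with ANIT minus vehicle greater in hepatocytes for 292 (1.84%) and smaller for 826 (5.21%). In the bile duct itself 1033 probe sets passed (6.51%), 820 higher (5.17%) and 213 lower (1.34%). The bile duct arrays agreed less among themselves (pairwise correlations of 0.918 to 0.947 with ANIT and 0.834 to 0.893 with vehicle, against 0.979 to 0.989 and 0.985 to 0.988 in hepatocytes). They also held varying amounts of hepatocyte RNA, with a mean hepatocyte marker level of 5.23 ± 1.55 with ANIT and 6.41 ± 1.95 with vehicle, and the part of this in the interactions was not tested. Without vehicle bile duct replicate 4 or 1 the count was 1782 or 1656. No label ties a hepatocyte array to a bile duct array of the same rat.

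**Figure D4:**
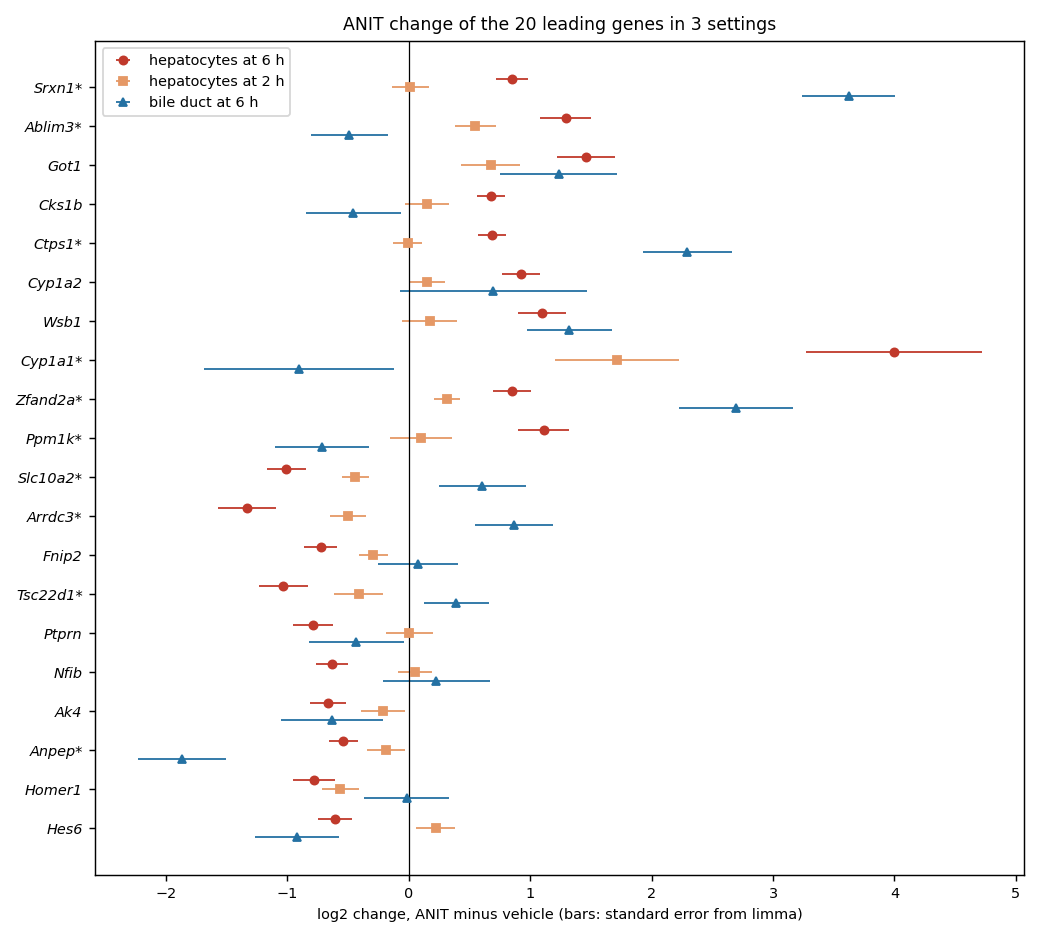
Log2 difference of ANIT minus vehicle (x axis, bars are standard errors from limma) for the 10 higher and 10 lower hepatocyte genes with the smallest p, in hepatocytes at 6 h, hepatocytes at 2 h and bile duct at 6 h. An asterisk marks an adjusted p under 0.05 for hepatocytes minus bile duct at 6 h; Srxn1 stands at 0.85 in hepatocytes and 3.62 in bile duct, and Cyp1a1 at 4.00 and -0.91.

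Of the 20 leading hepatocyte genes, 10 passed the test of the difference between regions, against 7.05% of all probe sets. The interaction uses the hepatocyte arrays by which these genes were chosen, so the count describes them and supports nothing. Srxn1 differed by 0.85 in hepatocytes and by 3.62 ± 0.38 in bile duct, where it rose (8.42 with ANIT and 4.80 with vehicle), an interaction of -2.77 (adjusted p = 0.000445). Ctps1 (interaction -1.61) and Zfand2a (-1.84) were likewise smaller in hepatocytes, with bile duct rises of 2.29 and 2.69. Cyp1a1 went the other way, with a bile duct difference of -0.91 ± 0.78 and an interaction of 4.90 (adjusted p = 0.0155). The other leading AHR gene, Cyp1a2, did not pass, with a bile duct difference of 0.695 ± 0.77 and an interaction of 0.23 (adjusted p = 0.904 in limma). Got1 (1.23 in bile duct, interaction 0.23) and Wsb1 (1.32 in bile duct, interaction -0.23) were also among those that did not pass. Ablim3 (interaction 1.78, adjusted p = 0.00526) and Ppm1k (1.82, adjusted p = 0.016) were greater in hepatocytes, with bile duct differences of -0.49 and -0.71. Arrdc3 (interaction -2.20), Slc10a2 (-1.62) and Tsc22d1 (-1.42) were lower in hepatocytes and 0.87, 0.61 and 0.39 in bile duct. Anpep fell by 1.87 on the log2 scale in bile duct (interaction 1.33, adjusted p = 0.032). The interaction of Anpep did not pass in 10 other settings and that of Zfand2a in 8 (adjusted p of at most 0.0636 and 0.0876).

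Several lists had a larger share of genes passing the interaction than all probe sets had. Of 21 ribosome biogenesis genes 9 passed the interaction, all smaller in hepatocytes (medians 0.36 in hepatocytes and 1.30 in bile duct), against 5.21% of all probe sets. For NRF2 targets it was 10 of 30, 9 of them smaller in hepatocytes, for heat shock genes 9 of 18 and for immediate early and MAPK feedback genes 10 of 34, all of these smaller. Dusp6 was -1.13 in hepatocytes and rose in bile duct by 1.54 (interaction -2.67, adjusted p = 0.000706), and Dusp1 was -0.64 and rose by 1.57 (interaction -2.21, adjusted p = 0.00208). Ephx1, the microsomal epoxide hydrolase, was the NRF2-list gene greater in hepatocytes, at 0.29 ± 0.13 there and -1.70 in bile duct (interaction 1.99, adjusted p = 0.00102).

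The 5 named probe sets with the smallest interaction p on each side had hepatocyte differences of at most 0.48 in size. On the side smaller in hepatocytes were the metalloprotease gene Adamts1 (0.09 in hepatocytes, 3.19 in bile duct), the glutathione transferase gene Gstp1 (-0.08 and 2.90), the polyamine enzyme Odc1 (0.15 and 2.46), Ppfibp1 (-0.23 and 1.99) and the glycyl-tRNA synthetase gene Gars1 (0.06 and 1.96). On the other side were Daam2 (0.26 and -2.64), Ptpn18 (-0.13 and -2.34), the adhesion gene Vcam1 (0.48 and -2.24), Myt1l (0.42 and -1.42) and Fam117a (0.11 and -2.04). Adjusted p-values of these 10 interactions ran from 9.07e-05 to 0.000746.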

How the data were processed

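RNA of laser-captured hepatocytes and bile ducts was amplified (NuGen Ovation) and hybridised to Affymetrix rat arrays, per the labels' protocols. The authors deposited log2 intensities normalized with RMA, per the submitters' processing notes, one value per probe set and array. A comparison table deposited by the authors holds a log10 ratio, a ratio and a p-value per probe set. It was used as an alternative only, its direction being taken from its correlation with the log2 differences (0.64 across probe sets).

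The 57 control probe sets of the array were dropped from the 15923 deposited. Genes were named through the platform annotation: 12783 probe sets had 1 symbol, 312 several and 2771 none listed. Groups were compared with limma 3.58.1 (lmFit, eBayes) in R 4.3.3, with Benjamini-Hochberg adjustment over 15866 probe sets and a threshold of 0.05. Interactions were contrasts of 4 groups. Array measures were compared by exact permutation in scipy 1.17.1. The scripts were tested on simulated data. The number of arrays limits the precision.

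As 0 probe sets passed, the genes named are the 10 higher and 10 lower with the smallest unadjusted p, 5 members with the smallest p of each list described, and 5 per direction for each interaction. The leading genes are given by their probe set with the lowest p, and a list uses for each gene its probe set with the highest mean level over the 10 arrays. The comparison, its gene lists and tests were chosen with earlier results of these data known. Alternatives changed the normalization, filter, variance model, arrays fitted and threshold, or left out 1 array.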

Additional observations from a re-analysis of the deposited data

Results flagged for a closer look

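Among 244 groups of 5 arrays examined for named probe sets and array measures, 12 single arrays lay far from the other 4 of their group, where chance gives about 1 in 20 groups. With ANIT these were Ppm1k at 8.57 in replicate 4, Ugt2b15 (a glucuronosyltransferase gene) at 8.33 in replicate 1, Tat at 7.21 in replicate 3, Ltv1 at 5.64 in replicate 5 and Psmc1 (a proteasome ATPase gene) at 9.03 in replicate 4. The array median of ANIT replicate 5 was 4.08, and the erythroid marker level of ANIT replicate 2 was 5.115. With vehicle they were Hes6 at 8.60 and Sds at 5.95 in replicate 5, Manf (an endoplasmic reticulum stress factor gene) at 8.00 in replicate 3, Ltv1 at 5.15 in replicate 2 and Crp (C-reactive protein) at 10.40 in replicate 4.

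Of 30 named probe sets tested for hepatocytes minus bile duct at 6 h, 20 passed that test of the difference itself (limma, adjusted p under 0.05 over all probe sets), 10 of them chosen for the smallest p in it. The ANIT difference was greater in hepatocytes for Cyp1a1 by 4.90, Daam2 by 2.90, Vcam1 by 2.71, Ptpn18 by 2.21, Fam117a by 2.15, Myt1l by 1.85, Ppm1k by 1.82, Ablim3 by 1.78 and Anpep by 1.33. The interaction was -3.10 for Adamts1, -2.98 for Gstp1, -2.77 for Srxn1, -2.31 for Odc1, -2.22 for Ppfibp1 and -2.20 for Arrdc3. It was -1.91 for Gars1, -1.84 for Zfand2a, -1.62 for Slc10a2, -1.61 for Ctps1 and -1.42 for Tsc22d1.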

How the results depend on the processing

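Of 108 probe sets named for hepatocytes at 6 h, 107 had the same direction in the 12 alternatives that kept the 10 arrays and 1 did not (Aldh3a1, -0.32 in the authors' deposited table). The direction could change only with another normalization, array weights or the authors' table, because the other alternatives keep the same group means. Most of these probe sets were also named for a small p on the same arrays, so the count describes them and supports nothing. The number passing was 0 after quantile normalization, with medians subtracted, at the stricter threshold and at 1.5-fold. It was 8 (8 higher, 0 lower) without dim probe sets, 14 (10 and 4) with a trended robust variance, 4 (3 and 1) with array weights, 17 (13 and 4) in 1 fit over the 4 hepatocyte groups, 5 (4 and 1) over 39 arrays and 3 (2 and 1) from the authors' deposited p-values. The 3 from the authors' deposited p-values were the probe set shared by Cyp2b1 and Cyp2b2, Ppm1k and Tsc22d1. With the replicate number as a block the number passing was 17 (12 and 5). Same-numbered arrays correlated at -0.03 to 0.05, and 0 of 5 correlated best with their own number. These correlations run over all probe sets, so they cannot show whether the number matters for single genes. Quantile normalization with 1 fit over the 4 hepatocyte groups, added after seeing the data, gave 31 (18 and 13). Leaving out 1 array gave 0 to 3 (0 to 2 in either direction). The change with time gave 0, or 0 to 1 without 1 array (higher 0 to 1, lower 0 to 0). For hepatocytes minus bile duct, 857 (320 and 537) passed after quantile normalization, 705 (141 and 564) with array weights, 833 (208 and 625) with the block and 757 to 1782 without 1 array (171 to 555 and 586 to 1227). The interaction of Cyp1a1 lost its call with array weights (adjusted p = 0.102), that of Slc10a2 after quantile normalization (0.0565), that of Tsc22d1 with array weights (0.075), and those of Zfand2a and Anpep in 8 and 10 settings. Interactions that did not pass changed sign for Wsb1 (0.13 after quantile normalization, and -0.38 to 0.045 without 1 array), Ak4 (-0.28 to 0.29), Got1 (-0.16 to 0.58), Cyp1a2 (-0.75 to 0.97) and Hes6 (-0.012 to 0.46). The cause was not tested. Low signal limits Aldh3a1, Acacb and Slc10a2. In hepatocytes Myt1l (2.51 with ANIT, 2.09 with vehicle), C2cd3 (3.38, 2.91), Daam2 (3.60, 3.34) and Gldc (3.34, 3.74) were also low. The median level over probe sets was 3.95, and Bhlhe40 stood below it with ANIT (3.43).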

Other observations

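Some probe sets differed between single rats by several log2 units within both groups, or for Mlc1 within the ANIT group only. They were picked after their values were seen. RT1-CE12, a major histocompatibility class I gene, stood at 4.65, 9.42, 9.04, 4.23 and 9.57 with ANIT, against 4.38, 4.12, 8.77, 4.85 and 4.10 with vehicle. RT1-Ba, a class II gene, stood at 1.90, 1.88, 1.92, 6.70 and 2.32 with ANIT, against 5.43, 6.41, 2.41, 5.15 and 4.91 with vehicle. Each fell into a high and a low set of arrays that both treatments shared, and the differences between treatments (2.14 and -1.92) had adjusted p of 0.654 and 0.593 in limma.

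Ubd, which encodes a ubiquitin-like modifier, stood at 6.81, 2.04, 2.99, 3.00 and 2.64 with ANIT, against 2.71, 2.82, 6.71, 6.32 and 6.35 with vehicle (-1.49, adjusted p = 0.723). Mlc1, a membrane protein gene, stood at 6.81, 4.75, 5.98, 6.22 and 2.26 with ANIT, against 6.93, 7.25, 7.05, 7.49 and 7.53 with vehicle. Its groups did not overlap, and the difference of -2.05 ± 0.61 had an adjusted p of 0.412.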
